A study of Mus musculus with 33 samples.

Results

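The 49 genes described here encode enzymes that break down amino acids in the liver. They were chosen by name, by the degradation route they belong to, with earlier results of these data known. Of the 49 genes, 46 carried a probe set in the array annotation and all 46 passed the filter on low values, among 9005 genes tested. Acmsd, Sds and Amt were not analysed here.

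The values are log2 expression levels in liver RNA of 33 male C57BL/6J mice, each hybridised to its own Affymetrix mouse genome array. All mice were 17 weeks old, had eaten a diet built on the same research base for 2 weeks, and were fasted through the morning before the liver was taken. In 12 mice the diet held 0.03% (w/w) fenofibrate, a lipid-lowering drug and activator of the nuclear receptor PPARα, together with sunflower oil at 7% of energy. In 11 mice it held fish oil at 7% of energy, with 23.1% EPA and 21.1% DHA, and no sunflower oil. The 10 control mice received the sunflower oil, 81.3% oleic acid, at 7% of energy, so the fenofibrate and control groups shared their oil. The comparisons ask how the drug and the oil each changed liver transcripts, and how the drug differed from the oil. Whole liver of 1 sex and 1 strain was measured, and mice were housed 2 per cage without a record here of which mice shared a cage. In such bulk samples, fewer cells of a type and less RNA per cell cannot be told apart.

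As background, the liver is the main site where amino acids beyond the need for protein synthesis are degraded. An aminotransferase or a deaminase removes the nitrogen, which goes to urea, and the carbon skeletons enter gluconeogenesis, ketone body synthesis or the citric acid cycle. Tryptophan also supplies the pyridine ring of NAD, and cysteine is oxidised to taurine, which is joined to bile acids. In rodents, PPARα activation is known to lower several amino acid degrading enzymes in liver, and glucocorticoids and glucagon are known to raise others such as Tat.

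The promoter windows of Pipox, Aadat and Agxt2 are shown because no other member's window holds the letters CAAAGTCCA (read as TGGACTTTG from the other strand), a form of the site known for the liver receptor HNF4α. The windows come from RefSeq, build GRCm38.p6, and run from 250 bases before to 50 bases after an annotated start; 43 members had at least 1. The match is in capitals, and it begins 16 bases after the start in Pipox, 72 bases before it in Aadat and 21 bases before it in Agxt2.
Pipox, chr11:77893823-77894122, minus strand: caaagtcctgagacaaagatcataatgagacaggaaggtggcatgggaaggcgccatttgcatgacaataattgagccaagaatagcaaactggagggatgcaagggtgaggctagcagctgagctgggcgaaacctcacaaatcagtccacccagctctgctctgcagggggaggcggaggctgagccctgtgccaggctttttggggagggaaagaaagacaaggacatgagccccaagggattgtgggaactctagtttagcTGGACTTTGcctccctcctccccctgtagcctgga
Aadat, chr8:60505874-60506173, plus strand: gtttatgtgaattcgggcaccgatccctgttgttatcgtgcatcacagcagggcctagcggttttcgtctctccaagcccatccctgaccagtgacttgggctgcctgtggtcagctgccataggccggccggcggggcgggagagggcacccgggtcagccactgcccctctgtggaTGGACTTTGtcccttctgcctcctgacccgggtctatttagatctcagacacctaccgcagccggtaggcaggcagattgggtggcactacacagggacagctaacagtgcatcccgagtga
Agxt2, chr15:10358283-10358582, plus strand: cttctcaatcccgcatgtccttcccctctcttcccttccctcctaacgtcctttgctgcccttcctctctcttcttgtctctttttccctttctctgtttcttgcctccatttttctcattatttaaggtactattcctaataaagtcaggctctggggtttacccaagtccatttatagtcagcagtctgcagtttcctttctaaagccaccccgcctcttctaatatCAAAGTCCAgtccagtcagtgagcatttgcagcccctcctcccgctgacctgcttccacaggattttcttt
These letters occur in at least 1 window of 6.98% of the 43 members and of 0.555% of 27025 annotated genes. The nuclear receptor half-site AGGTCA, searched on both strands and not contained in the first motif, occurs in 37.2% of members and 18.1% of genes. A direct repeat of that half-site, with a single free base between the copies and any base in place of the T of each, was found on either strand in 0 of the 43 members and in 0.451% of genes. A match is a description of letters only, and the 3 printed genes did not all share a pattern of expression. Against control, Pipox was lower on fenofibrate and Aadat was higher on fish oil. Both of these were lower on fenofibrate than on fish oil, while Agxt2 was called in no comparison.

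The hepatocyte markers measured in these samples were high throughout, with Alb between 14.82 and 15.02 and Hnf4a between 11.06 and 12.04 over the 33 arrays. The summed level of 6 measured hepatocyte markers of 7 lay between 17.01 and 17.12 on fenofibrate, between 17.10 and 17.21 on fish oil and between 17.13 and 17.25 in controls, and 4 of the 6 were lower on fenofibrate than in controls. Of 60 markers of 9 liver cell types and neighbouring tissues, 35 were measured; on fenofibrate against control 5 were higher and 15 lower, and on fish oil against control 1 was higher and 4 were lower. The shares of all genes were 22% higher and 18.9% lower on fenofibrate, and 7.53% higher and 7.00% lower on fish oil. The part of these markers in the results was not tested. Control replicate 1 stood apart for these genes: it was the lowest of the 10 controls for 29 of the 46 members, and its median deviation from the control median was -0.23. Control replicate 2 was at 8.25 for Csad, the lowest of all controls, and control replicate 9 lay 1.17 above the control median for Csad. Counts of called genes are therefore also given without control replicates 1, 2 and 9.

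**Figure D1:**
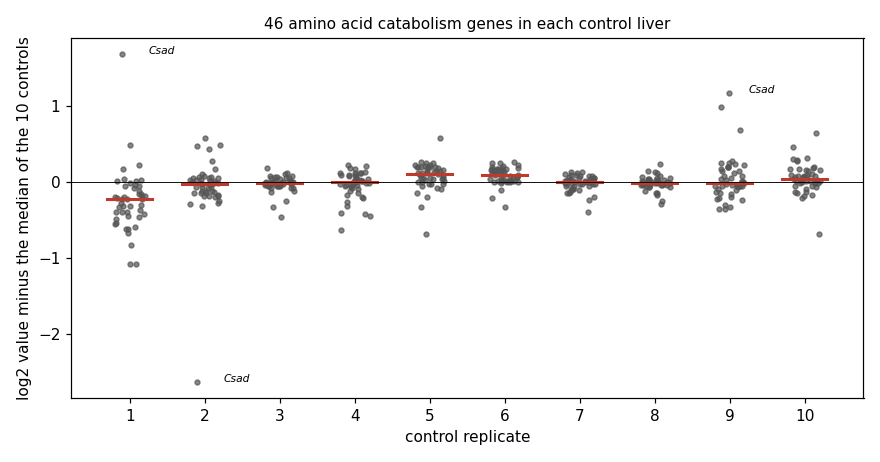
Log2 value of each of the 46 measured genes in each of the 10 control livers, minus the median of the 10 controls for that gene; each point is 1 gene and the red line is the median over genes. Control replicate 1 has a median of -0.23 and is the lowest control for 29 genes, and Csad gives the extreme points of replicates 1, 2 and 9.

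On fenofibrate, more of these genes were lower than higher. Of the 46 genes, 18 were lower than in controls, 7 were higher and 21 did not pass the test (limma, Benjamini-Hochberg adjusted p under 0.05 over 9005 genes). The called share was 54.3%, against 40.8% of all genes tested; 39.1% were lower, against 18.9% of all genes, and 15.2% were higher, against 22%. The median log2 difference was -0.10 over these genes and -0.0016 over all genes. The largest decrease was in Prodh, the proline dehydrogenase, at -1.17 ± 0.15 (SE), and the largest increase in Csad, which makes hypotaurine, at 1.45 ± 0.29. A difference of at least 0.5 in size together with a call was found for 9 of the 46, against 993 of 9005 genes (11.0%). Without control replicates 1, 2 and 9, 20 genes were lower and 5 were higher: the calls of Aass, Gcsh and Tdo2 were lost, and Afmid, Gpt and Pccb were called lower. When arrays with neighbouring label numbers were treated as correlated pairs (a random block), 18 were lower and 5 higher, and the calls of Gcsh and Tdo2 were lost.

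Fish oil moved a smaller number, and more of them upward. Of the 46 genes, 11 were higher than in controls, 6 were lower and 29 did not pass, a called share of 37.0% against 14.5% of all genes. The share that was higher was 23.9%, against 7.53% of all genes, and the share that was lower was 13.0%, against 7.00%. The median log2 difference was 0.06 over these genes and 0.01 over all genes. Only Csad and Aadat were called with a difference of at least 0.5, 2 of the 46 against 348 of 9005 genes (3.86%). No gene's fish oil arrays lay wholly outside its control range on one side, 0 against 1.05% of all genes. Without control replicates 1, 2 and 9, 8 were higher and 6 were lower, with Dbt, Gpt2, Hibadh, Mccc2, Oat and Tat lost and Dmgdh, Ftcd and Prodh added. With the random block 7 genes were higher and 2 lower, 9 in all, and the calls of Agxt, Csad, Dbt, Gcsh, Gpt2, Hibadh, Oat and Tat were lost. Both diets were set against the same 10 control arrays, so the values of the 2 comparisons are not independent and are given side by side.

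Between the diets, 18 genes were lower on fenofibrate than on fish oil, 2 were higher and 26 did not pass. The called share was 43.5%, against 38.9% of all genes; 39.1% were lower, against 19.1% of all genes, and 4.35% were higher, against 19.8%. The median log2 difference was -0.08, against -0.0091 over all genes. In 5 genes (Hibch, Sardh, Amdhd1, Hal and Pipox) no array of one diet reached the range of the other, a share of 10.9% against 6.34% of all genes. Called differences of at least 0.5 numbered 6 of the 46, against 891 of 9005 genes (9.89%). Without control replicates 1, 2 and 9, which enter this contrast only through the shared spread, 20 were lower and 4 higher, with Aass, Bckdha, Csad and Ftcd added. With the random block 16 were lower and 1 higher, and the calls of Aldh6a1, Gpt and Gpt2 were lost.

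**Figure D2:**
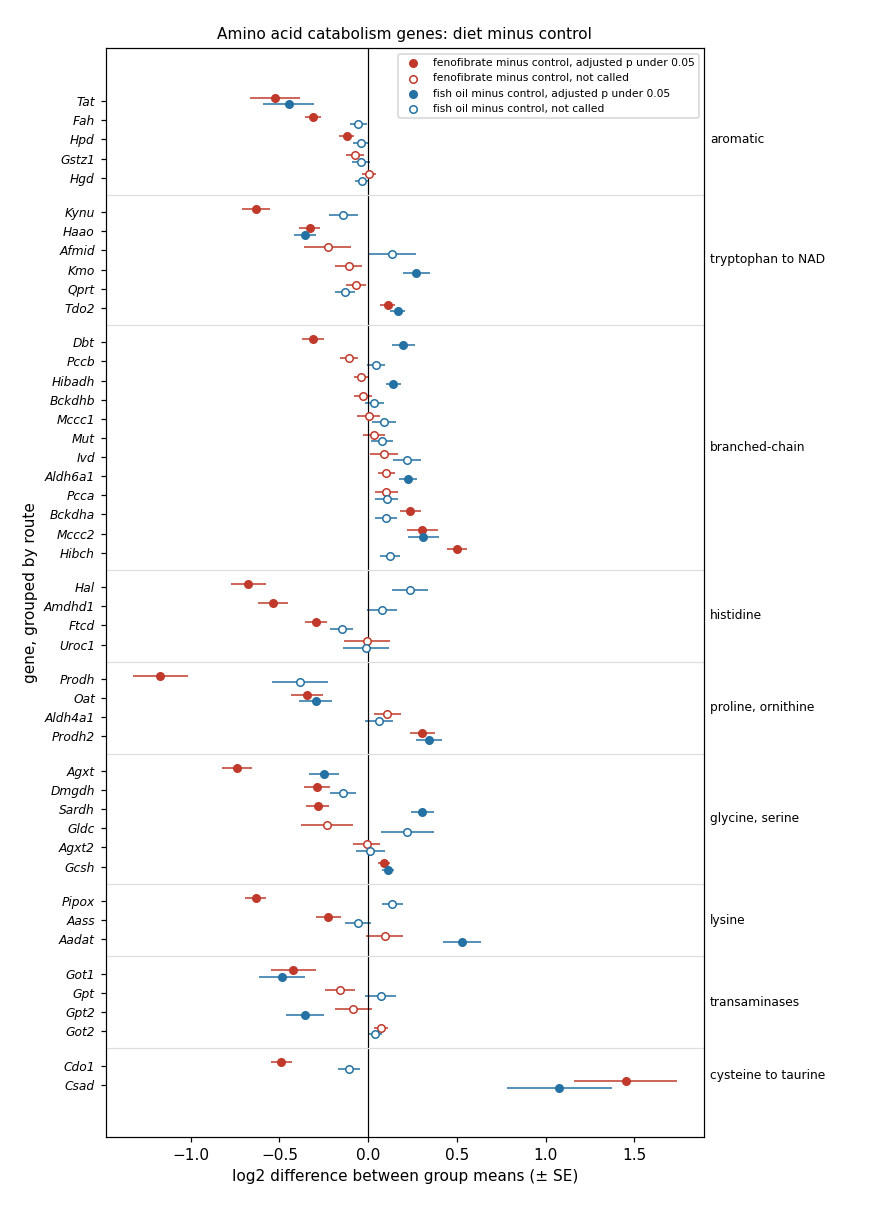
Log2 difference between group means ± SE for the 46 genes, grouped by route, for fenofibrate minus control (red, n = 12 and 10) and fish oil minus control (blue, n = 11 and 10); filled points have an adjusted p under 0.05. Prodh has the lowest red point at -1.17, Csad has the highest points of both diets at 1.45 and 1.08, and Dbt and Sardh have filled points on opposite sides of 0.

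In the aromatic route, which takes tyrosine to fumarate and acetoacetate, 3 of 5 genes were lower on fenofibrate and 1 was lower on fish oil. Of all genes tested, 18.9% were lower on fenofibrate and 7.00% on fish oil. Tat, tyrosine aminotransferase, catalyses the first step. Its level (probe set 1451557_at; such numbers name the probe set that stood for a gene) was between 11.55 and 12.61 (median 11.81) on fenofibrate, between 11.44 and 12.70 (median 12.00) on fish oil and between 11.89 and 12.70 (median 12.57) in controls. The 3 groups overlapped, with most fenofibrate arrays under the control median and the fish oil arrays spread across nearly the whole range. The difference from control was -0.53 ± 0.14 on fenofibrate (adjusted p = 0.00314, limma) and -0.45 ± 0.14 on fish oil (adjusted p = 0.0325, limma). The fish oil call was lost when any 1 of 10 arrays was left out (fish oil replicates 1, 2, 5, 7 and 11 and control replicates 2, 3, 7, 8 and 10), with adjusted p between 0.0506 and 0.0634. It rose to an adjusted p of 0.0880 with the random block. Between the diets Tat differed by -0.08 ± 0.14 (adjusted p = 0.683).

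Fah, fumarylacetoacetase, carries out the last step of that route. Fah (1417220_at) lay between 12.16 and 12.43 (median 12.29) on fenofibrate, between 12.34 and 12.75 (median 12.57) on fish oil and between 12.39 and 12.77 (median 12.58) in controls. The fenofibrate and control ranges met in 1 array each, fenofibrate replicate 5 and control replicate 1. The difference was -0.31 ± 0.05 on fenofibrate (adjusted p = 2.07e-06, limma) and -0.06 ± 0.05 on fish oil (adjusted p = 0.485), and -0.25 ± 0.05 between the diets (adjusted p = 3.35e-05). Hpd, the 4-hydroxyphenylpyruvate dioxygenase, was also lower on fenofibrate, at -0.12 ± 0.04 (adjusted p = 0.0188, limma), a call lost under quantile normalization of the kept probe sets at an adjusted p of 0.12. Hgd, the homogentisate dioxygenase, and Gstz1, the maleylacetoacetate isomerase, gave 0.00 ± 0.04 and -0.08 ± 0.05 on fenofibrate and did not pass; Gstz1 passed without control replicate 1 (adjusted p = 0.0474).

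Along the route from tryptophan to NAD, 2 of 6 measured genes were lower and 1 was higher on fenofibrate, and 1 was lower and 2 were higher on fish oil. Kynu, kynureninase, releases alanine from kynurenine and 3-hydroxykynurenine. Kynu (1430570_at) was between 9.88 and 10.61 (median 10.20) on fenofibrate, between 10.50 and 10.95 (median 10.72) on fish oil and between 10.62 and 11.15 (median 10.88) in controls. Every fenofibrate array lay below every control array. Fenofibrate and control arrays did not overlap for 4 of the 46 genes (8.70%, against 5.41% of all genes): Kynu, Cdo1 and Pipox, which were lower, and Hibch, which was higher. The difference was -0.63 ± 0.08 on fenofibrate (adjusted p = 9.03e-08, limma), -0.14 ± 0.08 on fish oil (adjusted p = 0.27) and -0.49 ± 0.08 between the diets (adjusted p = 5.28e-06).

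Haao and Kmo, neighbours of Kynu in the route, showed other patterns. Haao, the 3-hydroxyanthranilate dioxygenase (1432492_a_at), lay between 11.62 and 11.97 (median 11.72) on fenofibrate, between 11.50 and 11.95 (median 11.69) on fish oil and between 11.86 and 12.34 (median 12.06) in controls. It was lower on both diets, at -0.33 ± 0.06 on fenofibrate (adjusted p = 5.13e-05, limma) and -0.35 ± 0.06 on fish oil (adjusted p = 0.000114, limma), and the 2 diets differed by 0.02 ± 0.06 (adjusted p = 0.78). Kmo, kynurenine 3-monooxygenase (1418998_at), lay between 10.72 and 11.26 (median 11.06) on fenofibrate, between 11.20 and 11.66 (median 11.33) on fish oil and between 10.83 and 11.61 (median 11.12) in controls. Kmo was higher on fish oil than in controls, by 0.27 ± 0.08 (adjusted p = 0.0158, limma), gave -0.11 ± 0.08 on fenofibrate (adjusted p = 0.257), and was lower on fenofibrate than on fish oil, at -0.38 ± 0.07 (adjusted p = 0.000106, limma).

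Tdo2, the tryptophan dioxygenase that opens the route, was higher on fish oil by 0.17 ± 0.04 (adjusted p = 0.00702, limma). On fenofibrate its call at 0.11 ± 0.04 (adjusted p = 0.0345, limma) was lost when any 1 of 6 arrays was left out (control replicates 1, 2 and 5 and fenofibrate replicates 5, 6 and 12), and its adjusted p was 0.068 with the random block and 0.107 with arrays centred on their median. The other probe sets of Tdo2 gave 0.02 ± 0.06 and 0.08 ± 0.09. Those 2 probe sets were lower on fenofibrate than on fish oil, at -0.24 ± 0.06 and -0.23 ± 0.09 (adjusted p = 0.00241 and 0.0299, limma over all kept probe sets), where the brightest one gave -0.06 ± 0.04. Afmid, the kynurenine formamidase, was lower on fenofibrate than on fish oil, at -0.36 ± 0.13 (adjusted p = 0.0228, limma). That call was lost with the mean of its 2 kept probe sets, at -0.27 (adjusted p = 0.157), and without the arrays whose label number carries a letter (adjusted p = 0.105), and its second probe set gave -0.17 ± 0.17 (adjusted p = 0.475, limma over all kept probe sets). Against control Afmid gave -0.23 ± 0.13 on fenofibrate, which passed without control replicate 1 (adjusted p = 0.0134). Qprt, which makes nicotinic acid mononucleotide, gave -0.07 ± 0.06 on fenofibrate and -0.13 ± 0.06 on fish oil and was called in no comparison; its second probe set was lower on fenofibrate than in controls, at -0.19 ± 0.07 (adjusted p = 0.0398, limma over all kept probe sets).

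Of the 12 branched-chain genes, which degrade leucine, isoleucine and valine, 3 were higher, 1 was lower and 8 did not pass on fenofibrate. On fish oil 4 were higher and 8 did not pass. The called share of all genes was 40.8% on fenofibrate and 14.5% on fish oil. Hibch, the 3-hydroxyisobutyryl-CoA hydrolase of valine degradation, had the largest increase of the 12. Hibch (1451512_s_at) was between 10.24 and 10.70 (median 10.52) on fenofibrate, between 9.90 and 10.24 (median 10.10) on fish oil and between 9.76 and 10.15 (median 9.98) in controls. All 12 fenofibrate arrays lay above all fish oil and all control arrays. The difference was 0.50 ± 0.06 on fenofibrate (adjusted p = 8.61e-09, limma), 0.12 ± 0.06 on fish oil (adjusted p = 0.16) and 0.38 ± 0.05 between the diets (adjusted p = 1.15e-06). Dbt, the acyltransferase core of the branched-chain keto acid dehydrogenase, went the other way on fenofibrate.

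Dbt (1449118_at) lay between 9.38 and 10.00 (median 9.72) on fenofibrate, between 9.97 and 10.33 (median 10.23) on fish oil and between 9.61 and 10.15 (median 10.05) in controls. It was lower on fenofibrate than in controls, at -0.31 ± 0.06 (adjusted p = 0.000165, limma), and lower than on fish oil, at -0.51 ± 0.06 (adjusted p = 4.31e-08, limma), with fenofibrate replicate 12 and fish oil replicate 3 the only arrays inside the other diet's range. On fish oil it was higher than in controls, at 0.20 ± 0.06 (adjusted p = 0.0351, limma). That call was lost without fish oil replicate 1, 2, 6, 10 or 11 or control replicate 1, 2 or 5 (adjusted p between 0.0531 and 0.0722), and without control replicates 1, 2 and 9, where the difference was 0.13 (adjusted p = 0.175).

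Of the E1 subunits of that dehydrogenase complex, Bckdha was higher on fenofibrate and Bckdhb was called in no comparison. Bckdha (1416647_at) lay between 10.66 and 10.96 (median 10.83) on fenofibrate, between 10.52 and 10.92 (median 10.70) on fish oil and between 10.22 and 10.80 (median 10.62) in controls, with overlapping ranges. Its difference was 0.24 ± 0.06 on fenofibrate (adjusted p = 0.00178, limma), or 0.14 without control replicates 1, 2 and 9, and 0.10 ± 0.06 on fish oil (adjusted p = 0.297). Between the diets it was 0.14 ± 0.06 (adjusted p = 0.0624), which passed without control replicate 1 or 2, fish oil replicate 7 or 9 or fenofibrate replicate 9. Bckdhb gave -0.03 ± 0.05 on fenofibrate and 0.03 ± 0.05 on fish oil.

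Mccc2, the beta subunit of the methylcrotonyl-CoA carboxylase of leucine degradation, was higher on both diets. Mccc2 (1432472_a_at) lay between 8.78 and 9.46 (median 9.01) on fenofibrate, between 8.87 and 9.38 (median 9.04) on fish oil and between 8.15 and 9.00 (median 8.82) in controls. The difference was 0.30 ± 0.09 on fenofibrate (adjusted p = 0.00495, limma) and 0.31 ± 0.09 on fish oil (adjusted p = 0.0147, limma). Without control replicates 1, 2 and 9 these were 0.21 (adjusted p = 0.0393) and 0.22 (adjusted p = 0.0752). Its partner Mccc1 gave 0.00 ± 0.06 and 0.09 ± 0.07 and passed in neither; a dimmer probe set of Mccc1 was lower on fenofibrate than in controls, at -0.28 ± 0.10 (adjusted p = 0.0286, limma over all kept probe sets).

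Further along valine degradation, Aldh6a1, the methylmalonate semialdehyde dehydrogenase, and Hibadh, the 3-hydroxyisobutyrate dehydrogenase, were higher on fish oil. Aldh6a1 differed from control by 0.23 ± 0.05 on fish oil (adjusted p = 0.00151, limma) and by 0.10 ± 0.05 on fenofibrate (adjusted p = 0.095). Hibadh differed by 0.14 ± 0.04 on fish oil (adjusted p = 0.0186, limma) and by -0.04 ± 0.04 on fenofibrate (adjusted p = 0.477), and its fish oil value was 0.09 without control replicates 1, 2 and 9 (adjusted p = 0.125). Both were lower on fenofibrate than on fish oil, at -0.12 ± 0.05 and -0.18 ± 0.04, as was Pccb, a propionyl-CoA carboxylase subunit, at -0.15 ± 0.05 (adjusted p = 0.0107, limma). The Aldh6a1 difference between the diets was lost without fish oil replicate 1, 4, 7, 8, 10 or 11 or fenofibrate replicate 3 or 4, with adjusted p between 0.0517 and 0.0703, and had an adjusted p of 0.0661 with the random block. Ivd, Pcca and Mut, which encode isovaleryl-CoA dehydrogenase, the other propionyl-CoA carboxylase subunit and methylmalonyl-CoA mutase, lay between 0.03 and 0.10 on fenofibrate and between 0.08 and 0.22 on fish oil, and were called in neither; Ivd passed on fish oil without fish oil replicate 3 or control replicate 4 or 6. Against control, the fenofibrate value of Pccb, -0.11 ± 0.05, passed without control replicate 1 or 2 or fenofibrate replicate 7.

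Of 4 genes of the histidine route, 3 were lower on fenofibrate than in controls, and on fish oil 0 passed the test. Among all genes, 18.9% were lower on fenofibrate and 14.5% passed in either direction on fish oil. Hal, histidine ammonia-lyase, removes the amino group in the first step. Hal (1418645_at) was between 10.04 and 10.96 (median 10.62) on fenofibrate, between 11.17 and 11.75 (median 11.50) on fish oil and between 10.67 and 11.52 (median 11.27) in controls. No fenofibrate array reached the fish oil range, and the fenofibrate and control ranges met only through control replicate 1, at 10.67, with the next control at 11.09. The difference was -0.68 ± 0.10 on fenofibrate (adjusted p = 1.38e-06, limma), a 1.60-fold decrease, 0.23 ± 0.10 on fish oil (adjusted p = 0.125) and -0.91 ± 0.10 between the diets (adjusted p = 3.10e-09, limma), a 1.88-fold lower level on fenofibrate.

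Amdhd1, the imidazolonepropionase of the third step, was also lower on fenofibrate. Amdhd1 (1427370_at) lay between 10.75 and 11.49 (median 11.19) on fenofibrate, between 11.60 and 12.08 (median 11.80) on fish oil and between 11.30 and 11.98 (median 11.79) in controls. The fenofibrate and fish oil ranges did not meet, and control replicate 1 was the only control inside the fenofibrate range. Its difference was -0.54 ± 0.08 on fenofibrate (adjusted p = 3.14e-06, limma), 0.08 ± 0.08 on fish oil (adjusted p = 0.613) and -0.61 ± 0.08 between the diets (adjusted p = 2.11e-07). Ftcd, which passes the formimino group of the product to folate, is the last enzyme of the route. Ftcd (1419670_at) lay between 11.85 and 12.28 (median 12.06) on fenofibrate, between 11.87 and 12.56 (median 12.18) on fish oil and between 12.04 and 12.49 (median 12.41) in controls. It was lower on fenofibrate than in controls, at -0.30 ± 0.06 (adjusted p = 0.000279, limma), with -0.15 ± 0.06 on fish oil (adjusted p = 0.121) and -0.15 ± 0.06 between the diets (adjusted p = 0.0551). Without control replicate 1 both of these passed, with fish oil replicate 9 left out the first did, and with fish oil replicate 3 or fenofibrate replicate 5 or 7 left out the second did.

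Uroc1, urocanase, acts between Hal and Amdhd1 and gave -0.01 ± 0.13 on fenofibrate and -0.01 ± 0.13 on fish oil. Its second, dimmer probe set gave -0.32 ± 0.14 on fenofibrate against control (adjusted p = 0.0717) and was lower on fenofibrate than on fish oil, at -0.49 ± 0.14 (adjusted p = 0.00569, limma over all kept probe sets). The values of the 2 probe sets of Uroc1 therefore disagree, and no direction is given for the gene.

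**Figure D3:**
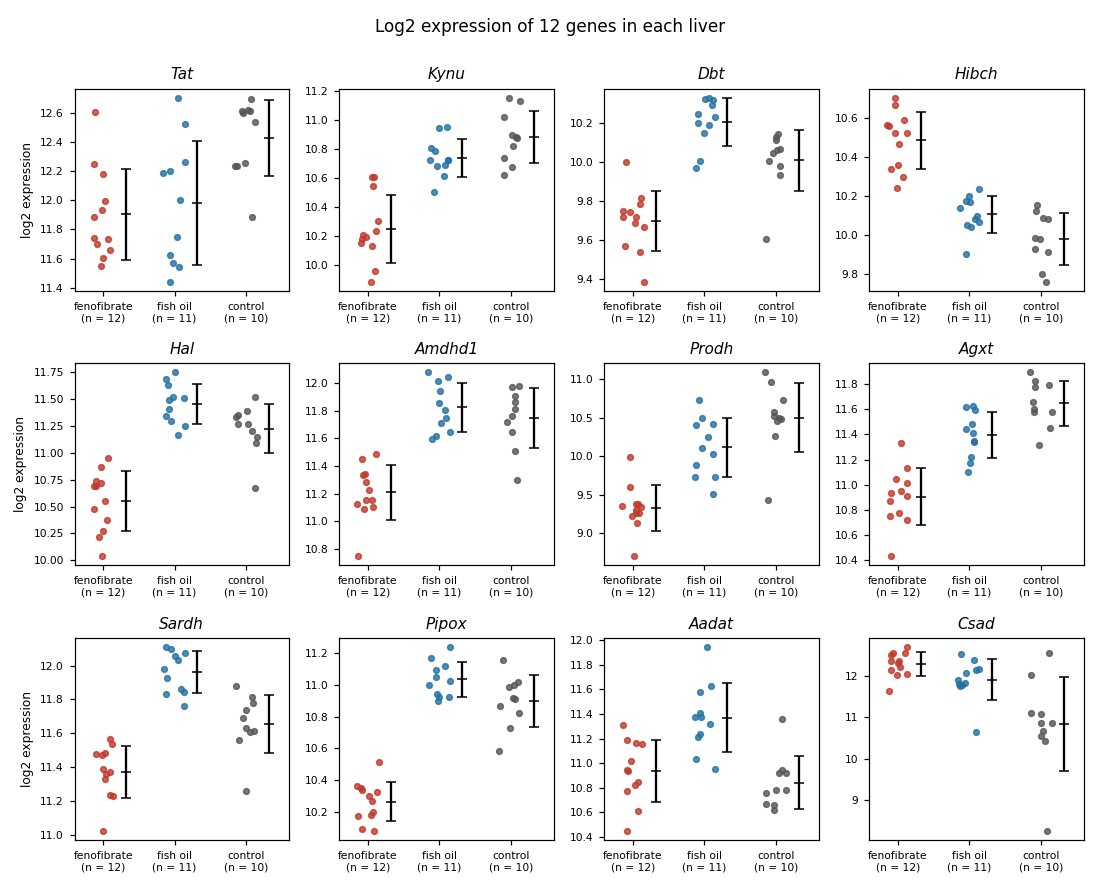
Log2 level in every liver for 12 genes that differed by at least 0.5 on the log2 scale in a called comparison; points are single mice on fenofibrate (n = 12), fish oil (n = 11) and control (n = 10), and bars are the mean ± SD. Hibch lies higher on fenofibrate than in either other group in every mouse, Pipox lies lower in every mouse, and the 10 control livers spread most for Csad, between 8.25 and 12.55.

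Of 4 genes of proline and ornithine, 2 were lower and 1 was higher on fenofibrate, and 1 was lower and 1 was higher on fish oil. Prodh, the mitochondrial proline dehydrogenase, had the largest decrease of all 46 genes. Prodh (1417629_at) lay between 8.70 and 9.99 (median 9.32) on fenofibrate, between 9.51 and 10.72 (median 10.10) on fish oil and between 9.43 and 11.09 (median 10.51) in controls. Control replicate 1, at 9.43, was the only control inside the fenofibrate range, and the fish oil arrays lay between and across the 2 other groups. The difference was -1.17 ± 0.15 on fenofibrate (adjusted p = 1.99e-07, limma), a 2.25-fold decrease, and -0.79 ± 0.15 between the diets (adjusted p = 8.65e-05, limma). On fish oil it was -0.39 ± 0.16 (adjusted p = 0.101), which passed without control replicate 1 or without fish oil replicate 9, at adjusted p between 0.0111 and 0.0446.

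Prodh2, the hydroxyproline dehydrogenase, was higher on fenofibrate, opposite to Prodh. Prodh2 (1432099_a_at) lay between 10.30 and 10.64 (median 10.49) on fenofibrate, between 10.36 and 10.66 (median 10.55) on fish oil and between 9.56 and 10.44 (median 10.19) in controls. It was higher on both diets, by 0.30 ± 0.07 on fenofibrate (adjusted p = 0.000681, limma) and 0.34 ± 0.07 on fish oil (adjusted p = 0.000879, limma). Oat, ornithine aminotransferase, joins ornithine to proline and glutamate. Oat (1416452_at) lay between 12.36 and 13.12 (median 12.72) on fenofibrate, between 12.55 and 12.97 (median 12.73) on fish oil and between 12.63 and 13.33 (median 13.08) in controls. It was lower, at -0.35 ± 0.09 on fenofibrate (adjusted p = 0.00245, limma) and -0.30 ± 0.09 on fish oil (adjusted p = 0.0266, limma), and the fish oil call was lost without fish oil replicate 1, control replicate 9 or control replicate 10. Aldh4a1, which completes the conversion of proline to glutamate, gave 0.11 ± 0.08 and 0.06 ± 0.08 and was called in neither.

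Among 6 measured genes of glycine and serine, 3 were lower and 1 was higher on fenofibrate, and 1 was lower and 2 were higher on fish oil. Agxt, the alanine-glyoxylate aminotransferase that clears glyoxylate, had the largest difference among them. Agxt (1418833_at) lay between 10.43 and 11.33 (median 10.92) on fenofibrate, between 11.10 and 11.63 (median 11.41) on fish oil and between 11.32 and 11.89 (median 11.63) in controls. The fenofibrate and control ranges met in 1 array each, fenofibrate replicate 5 and control replicate 1, and the fish oil arrays lay between and across both. The difference was -0.74 ± 0.08 on fenofibrate (adjusted p = 1.10e-08, limma), a 1.67-fold decrease, and -0.49 ± 0.08 between the diets (adjusted p = 1.17e-05, limma). On fish oil it was -0.25 ± 0.09 (adjusted p = 0.0455, limma), a call lost when any 1 of 17 arrays was left out, at adjusted p between 0.0501 and 0.0925. These were fish oil replicates 1, 3, 5, 8, 9, 10 and 11, control replicates 3 to 10 and fenofibrate replicates 6 and 9.

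Sardh and Dmgdh take methyl groups from sarcosine and dimethylglycine, and both were lower on fenofibrate. Sardh (1416662_at) lay between 11.02 and 11.56 (median 11.38) on fenofibrate, between 11.76 and 12.11 (median 11.98) on fish oil and between 11.26 and 11.88 (median 11.66) in controls. Every fenofibrate array was below every fish oil array, with controls between and across both. Sardh was -0.28 ± 0.07 on fenofibrate (adjusted p = 0.000682, limma), 0.31 ± 0.07 on fish oil (adjusted p = 0.0014, limma) and -0.59 ± 0.06 between the diets (adjusted p = 4.15e-09, limma). Its second probe set gave -0.50 ± 0.11 on fenofibrate and 0.20 ± 0.11 on fish oil, and the fish oil value of that probe set did not pass (adjusted p = 0.272).

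Dmgdh (1452311_at) lay between 10.95 and 11.42 (median 11.17) on fenofibrate, between 11.08 and 11.56 (median 11.30) on fish oil and between 11.05 and 11.77 (median 11.47) in controls, with overlapping ranges. It was lower on fenofibrate than in controls, at -0.29 ± 0.07 (adjusted p = 0.00176, limma), and gave -0.14 ± 0.07 on fish oil (adjusted p = 0.218). Of the glycine cleavage system, Gldc, its decarboxylase, was lower on fenofibrate than on fish oil, at -0.45 ± 0.14 (adjusted p = 0.0121, limma), with -0.23 ± 0.15 and 0.22 ± 0.15 against control, neither of which passed. Gcsh, the lipoyl carrier of that system, was higher on both diets by small amounts, 0.09 ± 0.03 on fenofibrate (adjusted p = 0.024, limma) and 0.11 ± 0.03 on fish oil (adjusted p = 0.0173, limma). The fenofibrate call of Gcsh was lost without control replicate 1 (adjusted p = 0.0595), with the random block (adjusted p = 0.0544) and with arrays centred on their median (adjusted p = 0.0918). Agxt2, the mitochondrial aminotransferase whose promoter is printed above, gave -0.01 ± 0.08 and 0.01 ± 0.08 and was called in no comparison.

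Of 3 lysine genes, 2 were lower on fenofibrate than in controls and 1 was higher on fish oil. Among all genes, 18.9% were lower on fenofibrate and 7.53% were higher on fish oil. Pipox, the peroxisomal pipecolic acid oxidase, which also oxidises sarcosine, had the smallest adjusted p of all 46 genes on fenofibrate. Pipox (1449374_at) lay between 10.08 and 10.51 (median 10.28) on fenofibrate, between 10.90 and 11.24 (median 11.02) on fish oil and between 10.58 and 11.16 (median 10.91) in controls. All 12 fenofibrate arrays were below all fish oil and control arrays, while fish oil and control arrays overlapped. The difference was -0.63 ± 0.06 on fenofibrate (adjusted p = 1.59e-10, limma), 0.14 ± 0.06 on fish oil (adjusted p = 0.132) and -0.77 ± 0.06 between the diets (adjusted p = 9.29e-13, limma).

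Aadat, the aminotransferase of 2-aminoadipate and kynurenine, was higher on fish oil. Aadat (1418519_at) lay between 10.45 and 11.31 (median 10.94) on fenofibrate, between 10.95 and 11.95 (median 11.37) on fish oil and between 10.62 and 11.36 (median 10.79) in controls. Control replicate 2, at 11.36, was the only control inside the fish oil range. Aadat differed from control by 0.53 ± 0.11 on fish oil (adjusted p = 0.000637, limma) and by 0.09 ± 0.10 on fenofibrate (adjusted p = 0.51), and was lower on fenofibrate than on fish oil, at -0.44 ± 0.10 (adjusted p = 0.000934, limma). Aass, the bifunctional enzyme that opens the main lysine route, was lower on fenofibrate than in controls. Aass (1423523_at) lay between 11.61 and 12.02 (median 11.97) on fenofibrate, between 11.91 and 12.33 (median 12.02) on fish oil and between 11.86 and 12.58 (median 12.10) in controls. The fenofibrate difference was -0.22 ± 0.07 (adjusted p = 0.0101, limma), or -0.11 without control replicates 1, 2 and 9 (adjusted p = 0.162), and on fish oil it was -0.06 ± 0.07 (adjusted p = 0.653). Between the diets Aass differed by -0.17 ± 0.07 (adjusted p = 0.052), and passed when any 1 of 10 arrays was left out: control replicates 1, 2, 7 and 9, fish oil replicates 3, 4, 5 and 8 and fenofibrate replicates 4 and 11.

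Of the 4 transaminases that serve many amino acids, 1 was lower on fenofibrate and 2 were lower on fish oil. The share of all genes that was lower was 18.9% on fenofibrate and 7.00% on fish oil. Got1, the cytosolic aspartate aminotransferase, was lower on both diets. Got1 (1450970_at) lay between 11.25 and 12.30 (median 11.73) on fenofibrate, between 11.35 and 12.06 (median 11.69) on fish oil and between 11.74 and 12.82 (median 12.14) in controls, and the ranges overlapped. The difference was -0.42 ± 0.12 on fenofibrate (adjusted p = 0.00695, limma), -0.49 ± 0.13 on fish oil (adjusted p = 0.00817, limma) and 0.06 ± 0.12 between the diets (adjusted p = 0.711). Gpt2, the mitochondrial alanine aminotransferase, was lower on fish oil.

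Gpt2 (1438385_s_at) lay between 11.76 and 12.25 (median 12.11) on fenofibrate, between 11.18 and 12.26 (median 11.87) on fish oil and between 11.79 and 12.37 (median 12.20) in controls. Its difference was -0.35 ± 0.11 on fish oil (adjusted p = 0.0211, limma) and -0.08 ± 0.10 on fenofibrate (adjusted p = 0.555). Gpt2 was higher on fenofibrate than on fish oil, by 0.27 ± 0.10 (adjusted p = 0.0326, limma), a call lost without fish oil replicate 1, 2, 3 or 5 or fenofibrate replicate 11. It was also lost with the random block (adjusted p = 0.0639), with the mean of its 4 kept probe sets (adjusted p = 0.0881) and with no filter (adjusted p = 0.0515). The other 3 probe sets of Gpt2 differed in the same direction and passed neither between the diets (0.16 to 0.26, adjusted p between 0.0706 and 0.25) nor on fish oil against control (-0.35 to -0.27, adjusted p between 0.0505 and 0.149; limma over all kept probe sets). With the random block the fish oil value of Gpt2 had an adjusted p of 0.0525.

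Gpt, the cytosolic alanine aminotransferase, gave -0.16 ± 0.09 on fenofibrate (adjusted p = 0.133), which passed without control replicate 1 (adjusted p = 0.00215). Gpt was lower on fenofibrate than on fish oil, at -0.23 ± 0.08 (adjusted p = 0.0268, limma), a call lost without fish oil replicate 6 or 7, with the random block (adjusted p = 0.0585) and without the arrays whose label number carries a letter (adjusted p = 0.0705). A second probe set of Gpt was dim, with a mean of 4.45, and was under a log2 value of 4 on some arrays. It was lower on fenofibrate than in controls, at -0.85 ± 0.15, and than on fish oil, at -0.78 ± 0.15 (adjusted p = 3.45e-05 and 9.12e-05, limma over all kept probe sets). Got2, the mitochondrial aspartate aminotransferase, gave 0.07 ± 0.04 and 0.04 ± 0.04 and was called in neither; a second probe set was higher on fenofibrate, at 0.17 ± 0.05 (adjusted p = 0.0128, limma over all kept probe sets).

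The 2 enzymes that take cysteine to hypotaurine moved in opposite directions on fenofibrate. Cdo1, cysteine dioxygenase, makes cysteine sulfinate. Cdo1 (1448842_at) lay between 12.66 and 13.12 (median 12.92) on fenofibrate, between 12.97 and 13.42 (median 13.30) on fish oil and between 13.21 and 13.57 (median 13.38) in controls. No fenofibrate array reached the control range. The difference was -0.49 ± 0.06 on fenofibrate (adjusted p = 4.28e-08, limma), -0.11 ± 0.06 on fish oil (adjusted p = 0.254) and -0.38 ± 0.06 between the diets (adjusted p = 2.57e-06, limma).

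Csad, cysteine sulfinate decarboxylase, takes that product on to hypotaurine. Csad (1427981_a_at) lay between 11.64 and 12.71 (median 12.34) on fenofibrate, between 10.64 and 12.54 (median 11.91) on fish oil and between 8.25 and 12.55 (median 10.87) in controls. Its control arrays had an SD of 1.13, the largest of the 46 genes, whose median control SD was 0.18, and controls reached both below and up to the levels of the diets. The difference was 1.45 ± 0.29 on fenofibrate (adjusted p = 0.000131, limma), a 2.73-fold increase, and 1.08 ± 0.29 on fish oil (adjusted p = 0.0113, limma), a 2.11-fold increase. Between the diets it was 0.37 ± 0.28 (adjusted p = 0.308). Without control replicate 2 these differences from control were 1.16 and 0.79, and without control replicate 1 they were 1.64 and 1.27. With the random block the fish oil value of Csad had an adjusted p of 0.0588.

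**Figure D4:**
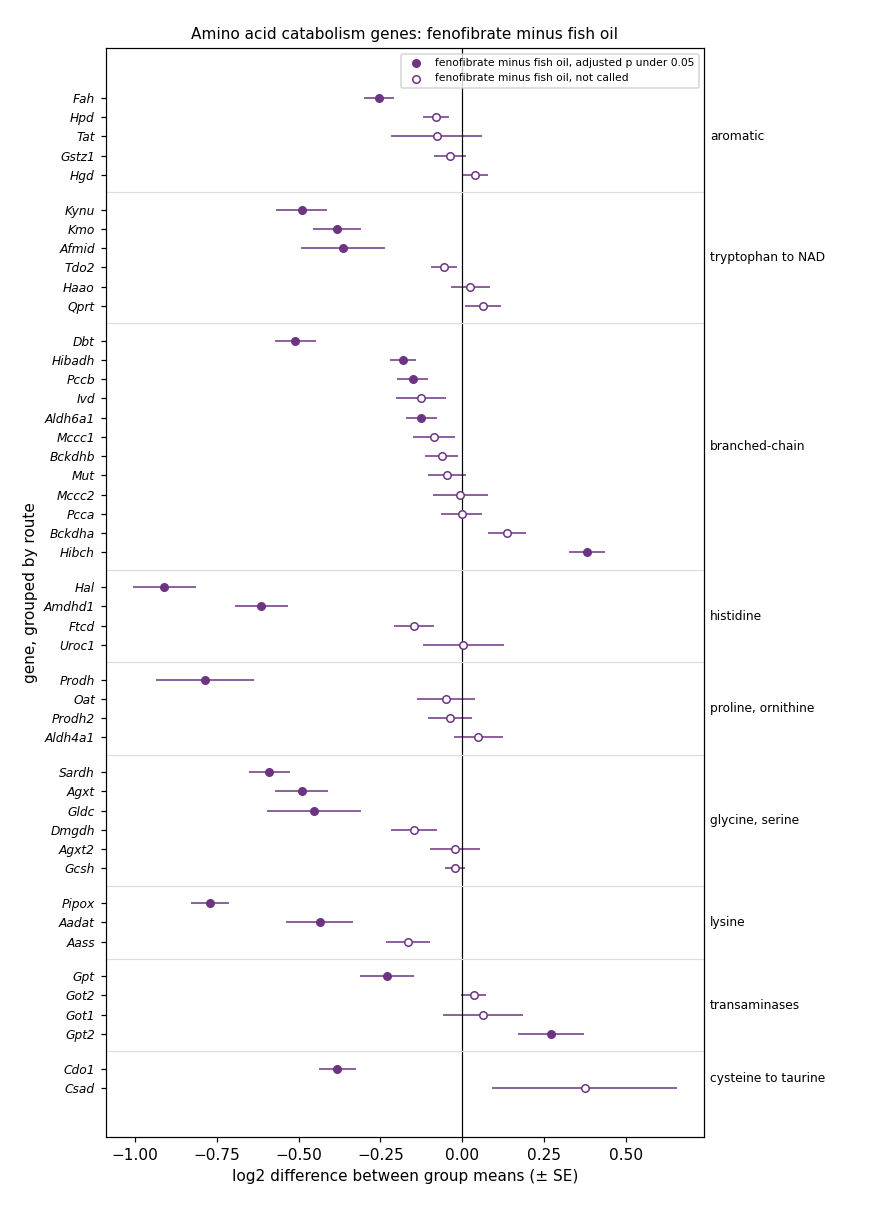
Log2 difference between the mean of 12 livers on fenofibrate and the mean of 11 on fish oil, ± SE, for the 46 genes grouped by route; filled points have an adjusted p under 0.05. Hal (-0.91), Prodh (-0.79), Pipox (-0.77), Amdhd1 (-0.61) and Sardh (-0.59) lie farthest to the left, and Hibch (0.38) and Gpt2 (0.27) are the filled points to the right.

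A further 48 genes of the same routes, cofactor and side enzymes that are not among the 49, were counted for context, and 38 of them were measured. On fenofibrate 15 were higher, 7 lower and 16 not called, where 22% of all genes were higher and 18.9% lower. On fish oil 7 were higher, 4 lower and 27 not called, where 7.53% of all genes were higher and 7.00% lower. Between the diets 12 were higher, 11 lower and 15 not called, where 19.8% of all genes were higher and 19.1% lower. The median log2 difference of these 38 genes was 0.08 on fenofibrate, where it was -0.10 for the 46 genes. On fenofibrate the largest were Nmnat1, which makes NAD from its mononucleotide, at 0.87 ± 0.08, and Suox, which oxidises sulfite to sulfate, at 0.61 ± 0.07 (adjusted p = 2e-10 and 7.24e-09, limma). Acadsb, the short/branched-chain acyl-CoA dehydrogenase of isoleucine, was lower at -0.58 ± 0.09, and Srr, serine racemase, and Grhpr, glyoxylate reductase, were higher at 0.57 ± 0.07 and 0.52 ± 0.05. On fish oil the genes that passed with a size of at least 0.5 were Ppm1k, the phosphatase that activates the branched-chain keto acid dehydrogenase, at 0.68 ± 0.09, and Mmab, a cobalamin adenosyltransferase, at -0.64 ± 0.18. Mmab was dim, with a mean of 4.51 on fish oil and 5.15 in controls, not far above the filter's log2 level of 4.

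Ppm1k was also higher on fenofibrate than in controls, at 0.42 ± 0.08 (adjusted p = 0.000136, limma). Between the diets, Mmab differed by 1.16 ± 0.17 and Nmnat1 by 0.84 ± 0.08, both higher on fenofibrate. Lower on fenofibrate than on fish oil were Acadsb at -0.74 ± 0.08, Ido2, a second tryptophan dioxygenase, at -0.62 ± 0.17, and Cth, the cystathionine lyase that supplies cysteine, at -0.52 ± 0.09. Mmab and Ido2 were dim, not far above the filter's log2 level of 4. Their means on fenofibrate and on fish oil were 5.67 and 4.51 for Mmab and 4.35 and 4.97 for Ido2.

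Lists of genes that mark the state of the liver were read beside these results. Of 8 genes known to respond to fasting and glucocorticoids, 1 was lower on fenofibrate than in controls, Tsc22d3 at -0.67 ± 0.19 (adjusted p = 0.0049, limma), and 0 passed on fish oil. Of 7 measured periportal genes, 3 were lower and 1 was higher on fenofibrate; of 8 pericentral genes, 3 were lower. On fish oil 1 periportal and 2 pericentral genes were lower. For comparison with these lists, 22% of all genes were higher and 18.9% lower on fenofibrate. On fish oil 7.53% of all genes were higher and 7.00% lower. The summed level of the periportal genes was between 15.37 and 15.65 on fenofibrate, between 15.45 and 15.76 on fish oil and between 15.51 and 15.73 in controls. That of the pericentral genes was between 14.97 and 15.18 on fenofibrate, between 15.12 and 15.38 on fish oil and between 15.14 and 15.40 in controls. The part of fasting state and zonation in the results was not tested.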

How the data were processed

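Total liver RNA of 33 mice was hybridised to 1 array each (5 µg of RNA per labelling, RNA integrity number above 8, per the labels' protocols). Per the submitters' processing notes, the authors used GCRMA 2.24.1, and the deposited table holds its log2 values for each probe set. That method models background from probe sequence and then applies quantile normalization across arrays, which makes array medians alike (2.90 to 2.97 here) and can compress differences at the dim and bright ends. Values ran from 0.484 to 15.6. Arrays have no read depth, and their number limits the precision.

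Of 45101 probe sets, 64 control probe sets were left out, 34945 are annotated with 1 gene, 932 with several, and 9160 have no name in the annotation table at hand. Current symbols came from RefSeq's GRCm38.p6 gene table; Mut is listed there as Mmut. The filter required log2 4 or more on 10 or more of the arrays, whatever their group; it kept 17162 probe sets, 15203 of them with 1 gene. Each gene was represented by its brightest probe set on average, which gave 9005 genes. Values of different probe sets are not compared with each other.

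Each gene was fitted with 1 linear model over the 3 groups (limma 3.58.1, statmod 1.5.0, R 4.3.3; moderated two-sided tests without trend), and p-values were adjusted by the Benjamini-Hochberg method across all 9005 genes, with a threshold of 0.05. The script was tested on simulated data with independent arrays and the same spread in all groups. Such data cannot check p-values where arrays are correlated or groups differ in spread. The SE is that of the model. Summed levels are the log2 of summed linear values. Arrays with neighbouring label numbers in a group deviated together, with a correlation of 0.23, so SE and adjusted p can be too small. Members, routes, lists and alternatives were chosen with earlier results of these data known. Lowest, median and highest levels are printed for members called with a log2 difference of at least 0.5 in some comparison. At most 2 more per route were added, mostly those with the smallest adjusted p in any comparison. In the branched-chain route Bckdha and Mccc2 were added, although Hibadh and Aldh6a1 had a smaller adjusted p. Other genes of the routes are named from the largest difference down, at most 5 per comparison. The alternatives changed the filter, scaling, probe set of a gene, variance model, arrays in the fit, array weights, replicate block and random block, and left out each array in turn and control replicates 1, 2 and 9 together. The array label numbers that carry a letter were left out in a further alternative.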

Additional observations from a re-analysis of the deposited data

Results flagged for a closer look

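The control group had 10 arrays and was searched for single arrays that stand apart by Dixon's criterion, which sets the gap to the nearest array against the group's range. The fenofibrate and fish oil groups have more than 10 arrays and were not searched. Chance alone flags about 1 gene in 20, and 16 of the 46 genes had such an array. The genes share the same 10 arrays, so these flags are not independent, and genes outside the 46 were not searched. In 13 of the 16 flagged genes the array was control replicate 1, as the lowest. Its values were 12.17 for Gstz1, where the nearest control was at 12.44, 8.63 for Afmid (nearest 9.41), 9.61 for Dbt (9.93), 9.50 for Ivd (9.87) and 8.15 for Mccc2 (8.57). Control replicate 1 was also lowest for Pcca at 9.11 (nearest 9.42), Aldh6a1 at 11.98 (12.22), Hal at 10.67 (11.09), Prodh at 9.43 (10.26) and Prodh2 at 9.56 (10.12). The last 3 genes with this array lowest were Gcsh at 11.18 (nearest 11.36), Sardh at 11.26 (11.56) and Gpt at 9.22 (9.92). Control replicate 2 was the highest for Aadat, at 11.36 (nearest 10.94), and the lowest for Csad, at 8.25 (nearest 10.42). Control replicate 9 was the highest for Hgd, at 13.09 (nearest 12.88).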

How the results depend on the processing

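No difference called in the main fit changed sign under any alternative tried. Of the calls, 21 of 25 for fenofibrate against control, 8 of 17 for fish oil against control and 16 of 20 between the diets passed under every alternative, and 4, 6 and 7 further genes passed under at least 1. With neighbouring label numbers as a random block, fish oil against control gave 9 called members (7 higher, 2 lower) and 845 called genes in all, against 1308. For members higher on fenofibrate than on fish oil, the count was 1 with no filter, 1 with the mean of all kept probe sets, 1 with the random block and 4 without control replicates 1, 2 and 9, against 2. Leaving out each array in turn gave 24 to 27 called members for fenofibrate against control (5 to 7 higher, 18 to 22 lower), 13 to 18 for fish oil against control (10 to 12 higher, 3 to 8 lower) and 18 to 23 between the diets (1 to 3 higher, 16 to 20 lower). The 3 lower members on fish oil were without fish oil replicate 1 or control replicate 10, and the single member higher on fenofibrate than on fish oil was without fish oil replicate 1, 2, 3 or 5 or fenofibrate replicate 11. The labels do not say whether replicate numbers pair the mice, and the main fit assumed no pairing. After group means were removed, arrays of the same number in different groups correlated at -0.21 to 0.35 (median 0.05), with 12 of 31 pairs over 0.1. For different numbers in different groups the range was -0.41 to 0.40 (median -0.02), with 84 of 331 pairs over 0.1. With the replicate number as a block, 23, 17 and 20 members were called, against 25, 17 and 20. Arrays hold no depth; all 46 members were above the filter.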

Other observations

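Within each group, 1 or 2 arrays held the extreme value for many of the 46 genes. Among the 12 fenofibrate livers, replicate 5 was the highest for 23 genes and the lowest for 0, and replicate 2 was the lowest for 18 genes and the highest for 0. Among the 11 fish oil livers, replicate 3 was the lowest for 20 genes, and replicates 6 and 9 were the highest for 11 and 10. Among the 10 controls, replicate 1 was the lowest for 29 genes and replicate 5 the highest for 12. The median deviation from the group median over the 46 genes was 0.15 for fenofibrate replicate 5, -0.13 for fenofibrate replicate 2, -0.15 for fish oil replicate 3 and -0.23 for control replicate 1. Of the 18 genes that were lower on fenofibrate than in controls, control replicate 1 was the lowest control for 12.

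The summed level of the 4 histidine genes lay between 13.00 and 13.38 on fenofibrate (median 13.19), between 13.39 and 13.75 on fish oil (13.57) and between 13.18 and 13.70 in controls (13.61). For the 3 lysine genes it lay between 12.64 and 12.96 on fenofibrate (12.78), between 12.96 and 13.33 on fish oil (13.18) and between 12.87 and 13.35 in controls (13.01). For the 12 branched-chain genes it lay between 14.47 and 14.73 on fenofibrate (14.60), between 14.55 and 14.77 on fish oil (14.72) and between 14.27 and 14.69 in controls (14.59). These sums weight bright probe sets most and carry no test.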
